A study of Arabidopsis thaliana with 18 samples.

Results

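The genes described here are the 32 members of the aliphatic glucosinolate pathway of Arabidopsis thaliana, listed by locus for their known roles in that pathway. The rule uses no measured value, but the pathway was chosen with earlier results of these data known. They comprise 3 regulators, 10 genes of side-chain elongation, 12 genes of core structure formation and 7 genes of side-chain modification. The count table, which covers 32832 genes, held 31 of the 32; the AOP2 locus (AT4G03060), which the reference annotates as a transcribed pseudogene, was not analysed here. Of the 31, 29 had enough counts to be tested among the 19679 genes that passed a filter on low counts, and MYB76 and AOP3 did not. Whole seedlings of 5 days were compared. The 3 mutant groups carried atm1-1, a T-DNA insertion in the class VIII myosin gene ATM1 (AT3G19960) that the study describes as a null allele and that is represented by 1 insertion line. They grew on medium with 15 mM glucose, with 15 mM sucrose, or without added sugar (mock), and the 3 groups of the Col-0 wild type grew on the same 3 media. Each of the 6 groups had 3 libraries, 18 in all.

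Glucosinolates are sulfur-rich defence compounds of the Brassicales that myrosinases cleave into toxic products when tissue is damaged. The aliphatic ones are built from methionine. The amino acid is deaminated in the cytosol, lengthened in the plastid by a cycle that resembles leucine synthesis, converted by cytochromes P450 and conjugating enzymes into the core structure, and then modified on its side chain. A small clade of R2R3-MYB factors, MYB28, MYB29 and MYB76, activates the genes, and the indole glucosinolates made from tryptophan share several of the late core enzymes.

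Libraries were 3′ tag libraries, in which 1 read is taken near the end of a transcript, and held 9450790 to 20256309 counts. Levels are given as CPM, counts scaled to a common library total by the TMM method, which also corrects for composition. The insertion could not be checked from ATM1 itself, whose tags in atm1-1 mock had a log2 fold change against Col-0 mock of −0.27, with an SE of 0.19 (edgeR q = 1.0). ATM1 had 311 to 623 counts per library over the 18 libraries, and the groups are named by their labels. Seedlings were sampled whole, so fewer cells of a type and less RNA per cell cannot be told apart. Among tissue markers, 7 of 10 root and 8 of 8 shoot markers were tested, and none passed the threshold between genotypes on any medium. In mock 3 of the 7 root markers had separate libraries with atm1-1 higher, against 6.29% of all genes, and 1 had an unadjusted p under 0.05, against 5.51%. On glucose these counts were 2, against 3.83%, and 3, against 6.48%. Summed root marker levels there were 205, 280 and 221 CPM in atm1-1 replicates 1, 2 and 3 and 112 to 226 CPM in Col-0. Summed root marker levels were 176 to 208 CPM in atm1-1 mock and 159 to 218 CPM in Col-0 mock libraries, with 2 to 3 of the 10 genes at 0 in atm1-1 mock libraries and 1 in each Col-0 mock library, and summed shoot marker levels were 57889 to 69951 CPM in atm1-1 mock and 57146 to 61363 CPM in Col-0 mock, with none at 0. The part of these tissues in the results was not tested. In atm1-1 mock, replicate 2 stood above replicates 1 and 3 for chain elongation, the median member lying 0.41 below its mean over the 18 libraries on the log2 scale there, against 1.22 and 1.24 below. In atm1-1 glucose, replicate 2 stood apart from the other libraries of its group over all genes tested. The log2 CPM of replicate 2 correlated at 0.920 and 0.946 with replicates 1 and 3, which correlated at 0.966. It had 448 tested genes at 0, against 144 and 65. Among members it stood apart for several, such as MAM1 at 1.5 CPM against 9.66 and 6.51 CPM, and SOT17 at 33.6 CPM against 17.0 and 16.5 CPM. None of the 31 members measured shared an exact match of 50 bases in the last 300 bases of its annotated transcript with another place in the TAIR10.1 genome. Genes on the opposite strand overlapped BCAT4, IMD1, IMD3, GSTF11, AT2G31790 and FMO GS-OX5, and as the use of strand in counting is not given in the sources used here, reads of IMD1, IMD3 and AT2G31790 could not be told apart from those of partners with 660 to 5913 counts over the 18 libraries. On the same strand AT1G74088, with 276 counts, overlapped SOT18, with 4702, and AT1G04933, with 86, overlapped FMO GS-OX5, with 4624.

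Whether loss of ATM1 changed the pathway was asked first without sugar. In atm1-1 mock seedlings, 8 of the 29 members tested were lower than in Col-0 mock at edgeR q ≤ 0.1 (Benjamini-Hochberg adjusted over all genes tested) and 0 were higher. Of all genes tested, 0.122% were called lower and 0.0356% higher. The 8 were BCAT4, MAM1, IPMI2 and IPMI1 of chain elongation and CYP79F1, CYP83A1, GSTU20 and AT2G31790 of the core. In all, 27 of 29 members had a log2 fold change below 0, against 49.8% of all genes tested, and the median over members was −0.97, against 0.00 over all genes tested. The libraries of the 2 genotypes did not overlap, with atm1-1 lower, for 23 of 29 members and for 6.53% of all genes. Of the 8 calls, those of BCAT4, CYP79F1 and CYP83A1 held when each library was left out in turn, while the count of 8 was 5 without Col-0 mock replicate 1 or atm1-1 mock replicate 1, and 3 without atm1-1 mock replicate 3. Without atm1-1 mock replicate 2 the log2 fold change was −2.83 for CYP79F1 and −2.40 for CYP83A1, against −2.17 and −1.77 with it.

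**Figure D1:**
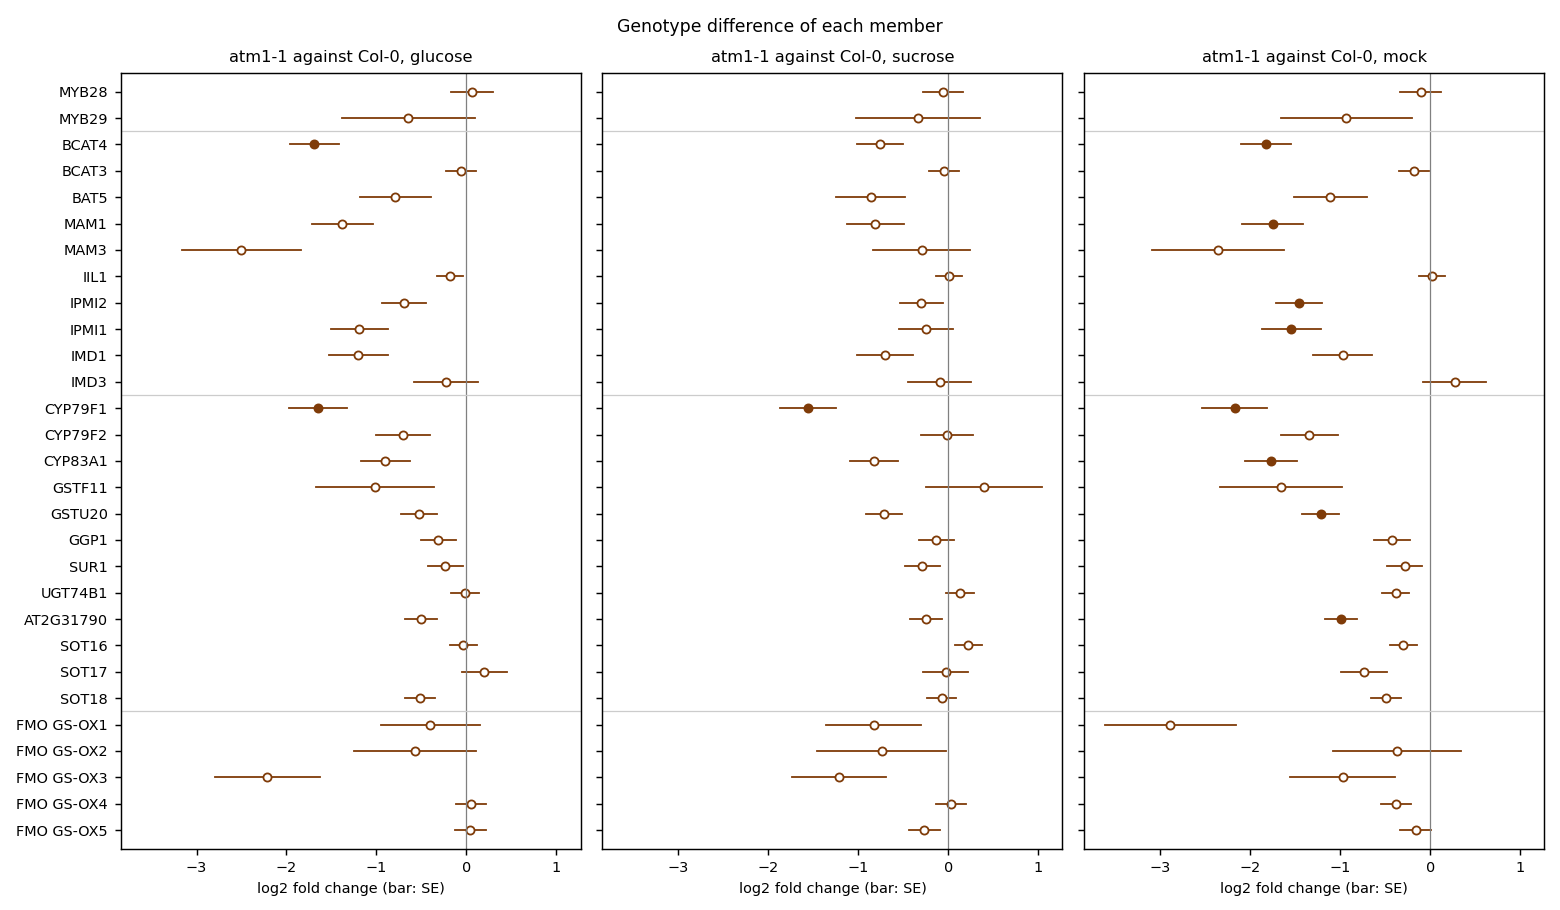
Log2 fold change of atm1-1 against Col-0 for each tested member on glucose, sucrose and mock medium (x axis), with members on the y axis ordered by step and grey lines between regulators, chain elongation, core and side chain. Bars are the SE, and filled points passed edgeR q ≤ 0.1, which 2 members did on glucose, 1 on sucrose and 8 on mock; in mock, 27 of 29 points lie below 0.

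Neither of the 2 regulators tested passed in any comparison. MYB28 (AT5G61420), the main activator of the pathway, was at 7.15, 7.17 and 5.89 CPM in atm1-1 mock and 5.51, 9.57 and 6.71 CPM in Col-0 mock libraries. The 2 groups overlapped, and the log2 fold change was −0.11 with a 95% confidence interval of −0.58 to 0.36 (edgeR q = 1.0). On sugar it was at 7.24, 7.04 and 6.58 CPM in atm1-1 and 6.76, 7.49 and 5.81 CPM in Col-0 with glucose, and at 9.19, 8.24 and 6.82 CPM in atm1-1 and 8.11, 8.06 and 9.11 CPM in Col-0 with sucrose. Over the 10 comparisons its log2 fold changes lay between −0.12 and 0.27.

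MYB29 (AT5G07690), which acts beside MYB28, was too sparse for a firm statement. It had 0.231, 0.394 and 0.490 CPM in atm1-1 mock and 0.819, 0.785 and 0.504 CPM in Col-0 mock libraries, from 15 counts in all in atm1-1 and 27 in Col-0. These groups did not overlap, but the interval of the log2 fold change of −0.93 ran from −2.43 to 0.56 (edgeR q = 1.0). MYB29 was at 0.749, 0.352 and 0.155 CPM with glucose and 0.320, 0.773 and 0.364 CPM with sucrose in atm1-1. In Col-0 it was at 0.890, 0.535 and 0.547 CPM with glucose and 0.545, 0.360 and 0.907 CPM with sucrose, so that its groups overlapped on both sugars. MYB76 (AT5G07700), the third activator, which lies next to MYB29 in the reference, had 0 counts in the 3 atm1-1 mock libraries, 0 in the 3 atm1-1 glucose libraries and 1 in the 3 atm1-1 sucrose libraries. In Col-0 it had 2 counts over the glucose, 8 over the sucrose and 7 over the mock libraries. At this depth a difference in MYB76 was not tested.

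In chain elongation, 8 of 10 members were below 0 in atm1-1 mock and the libraries of all 8 were separate from those of Col-0 mock. BCAT4 (AT3G19710), the aminotransferase that removes the amino group of methionine at the entry to the pathway, was at 5.88, 8.58 and 2.70 CPM in atm1-1 mock against 21.9, 20.6 and 18.6 CPM in Col-0 mock (log2 fold change −1.83, SE 0.28, edgeR q = 0.00225). Every atm1-1 library lay below every Col-0 library. BCAT4 lies on the same chromosome as ATM1, with 27 annotated genes between them in the reference. Of these, 20 were tested and 0 passed edgeR q ≤ 0.1 in mock (0 at an unadjusted p under 0.05), with a median log2 fold change of 0.05. Of all genes only 0.122% were called lower and 5.51% had such a p, so a count of 0 among 20 genes is near that of all genes. On glucose 0 of the 20 passed and 1 had an unadjusted p under 0.05, with a median of −0.10 and a lowest value of −0.99. This comparison of neighbours was chosen after the values of BCAT4 were seen.

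MAM1 (AT5G23010), the methylthioalkylmalate synthase that sets the length of the side chain, was at 3.86, 5.20 and 3.43 CPM in atm1-1 mock and 14.3, 14.0 and 13.8 CPM in Col-0 mock. On the log2 scale it differed by −1.75, with an SE of 0.34 (edgeR q = 0.0346). The next gene in the reference, MAM3 (AT5G23020, annotated there as IMS2), had 7 counts over the atm1-1 mock and 35 over the Col-0 mock libraries. Its libraries were separate too, at 0, 0.315 and 0.245 CPM in atm1-1 and 0.819, 0.785 and 1.18 CPM in Col-0, but its log2 fold change of −2.36 did not pass (SE 0.74, edgeR q = 0.513).

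The isomerase of the elongation cycle combines a large subunit with 1 of several small ones. IPMI2 (AT2G43100), a small subunit, was at 6.63, 13.4 and 6.38 CPM in atm1-1 mock against 27.9, 23.6 and 20.8 CPM in Col-0 mock (log2 fold change −1.46, SE 0.25, edgeR q = 0.00859). IPMI1 (AT3G58990), another small subunit, was at 2.25, 1.97 and 1.72 CPM in atm1-1 mock against 8.48, 4.55 and 4.36 CPM in Col-0 mock (log2 fold change −1.54, SE 0.33, edgeR q = 0.08). All atm1-1 libraries lay below all Col-0 libraries for both. IIL1 (AT4G13430), the large subunit, which leucine synthesis uses as well, was at 135, 136 and 130 CPM in atm1-1 mock and 134, 125 and 138 CPM in Col-0 mock, and the interval of its log2 fold change of 0.02 ran from −0.28 to 0.31. BCAT3 (AT3G49680), a plastid aminotransferase of both pathways, differed by −0.18 (95% interval −0.52 to 0.17), and IMD3 (AT1G31180), an isopropylmalate dehydrogenase, by 0.27 (−0.45 to 0.99). BAT5 (AT4G12030), the plastid carrier of the keto acids, and IMD1 (AT5G14200), the dehydrogenase of the elongation cycle, had log2 fold changes of −1.11 (edgeR q = 0.74) and −0.97 (edgeR q = 0.627), which did not pass. Of the calls in this step, that of BCAT4 alone held without each library. The highest edgeR q when 1 library was left out was 0.0440 for BCAT4, 0.265 for MAM1 (call lost without any 1 of the 3 Col-0 mock libraries or without atm1-1 mock replicate 1 or 3), 0.161 for IPMI2 (without atm1-1 mock replicate 1 or 3) and 0.629 for IPMI1 (lost in 7 of 18 fits).

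In the core step 4 of 12 members passed the test, all lower in atm1-1 mock. The log2 fold changes of all 12 were below 0, and 12 of 12 had separate libraries, against 6.53% of all genes, by as little as 15.59 against 15.61 CPM for SUR1. CYP79F1 (AT1G16410), the cytochrome P450 that turns elongated methionine into aldoximes, was at 0.576, 2.76 and 1.47 CPM in atm1-1 mock and 6.47, 8.39 and 6.21 CPM in Col-0 mock. Its log2 fold change of −2.17 (SE 0.36, edgeR q = 0.00488) was the lowest of the 8 called. CYP79F2 (AT1G16400), its tandem neighbour, which prefers longer side chains, was at 2.59, 2.99 and 1.23 CPM in atm1-1 mock against 6.70, 4.55 and 6.21 CPM in Col-0 mock, and at −1.34 it did not pass (SE 0.32, edgeR q = 0.136).

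CYP83A1 (AT4G13770), which oxidizes the aldoximes, was at 4.38, 11.0 and 3.76 CPM in atm1-1 mock and 24.0, 21.2 and 19.7 CPM in Col-0 mock (log2 fold change −1.77, SE 0.29, edgeR q = 0.00486). GSTU20 (AT1G78370), a glutathione transferase, was at 25.5, 28.9 and 22.2 CPM in atm1-1 mock and 54.8, 58.8 and 64.5 CPM in Col-0 mock (log2 fold change −1.22, SE 0.21, edgeR q = 0.00674). AT2G31790, a UDP-glycosyltransferase assigned to the glucosylation step, was at 16.7, 15.3 and 12.5 CPM in atm1-1 mock and 33.1, 30.9 and 24.7 CPM in Col-0 mock (log2 fold change −0.99, SE 0.18, edgeR q = 0.0115). For these 3 genes every atm1-1 library was below every Col-0 library. The call of GSTU20 was lost without atm1-1 mock replicate 3 (edgeR q = 0.114), and that of AT2G31790 without Col-0 mock replicate 1 or atm1-1 mock replicate 3 (highest edgeR q = 0.165).

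For the core enzymes that also serve indole glucosinolates the values lay nearer to 0. SUR1 (AT2G20610), the C-S lyase, had a log2 fold change of −0.28, UGT74B1 (AT1G24100), a glucosyltransferase, of −0.39, GGP1 (AT4G30530), a peptidase that trims the glutathione conjugate, of −0.43, and SOT16 (AT1G74100), a sulfotransferase, of −0.30, none of which passed. Values for the sulfotransferases SOT17 (AT1G18590) and SOT18 (AT1G74090) were −0.73 and −0.49, and for the glutathione transferase GSTF11 (AT3G03190), with 25 counts in atm1-1 and 73 in Col-0 mock, −1.66 (SE 0.68, edgeR q = 0.846). SOT17 was at 11.7, 8.27 and 9.89 CPM in atm1-1 mock and 17.0, 18.4 and 14.4 CPM in Col-0 mock (edgeR q = 0.675). No test between enzymes of the 2 kinds was made.

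In the side-chain step none of the 5 members tested passed in mock, and all 5 were below 0. FMO GS-OX1 (AT1G65860), an S-oxygenase that converts methylthio to methylsulfinyl side chains, had 5 counts over the atm1-1 mock and 36 over the Col-0 mock libraries, at 0.0576, 0.236 and 0.0817 CPM in atm1-1 and 0.893, 0.863 and 1.09 CPM in Col-0. The groups were far apart for so sparse a gene, and the log2 fold change of −2.89 (SE 0.72) missed the threshold by edgeR (q = 0.197) and passed it by DESeq2 (q = 0.0817). FMO GS-OX4 (AT1G62570), of the same family, was at 37.0, 41.3 and 35.3 CPM in atm1-1 mock against 60.8, 41.7 and 45.0 CPM in Col-0 mock (log2 fold change −0.38, edgeR q = 0.87), its groups parted by a small gap. FMO GS-OX3 (AT1G62560) was at 0.404, 0.315 and 0.899 CPM in atm1-1 mock and 0.893, 1.18 and 1.09 CPM in Col-0 mock, which overlapped (−0.97, edgeR q = 0.983). FMO GS-OX2 (AT1G62540) and FMO GS-OX5 (AT1G12140) had log2 fold changes of −0.37 and −0.16. AOP3 (AT4G03050), which makes hydroxyalkyl side chains, had 1 count in the 18 libraries, in Col-0 sucrose replicate 3.

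**Figure D2:**
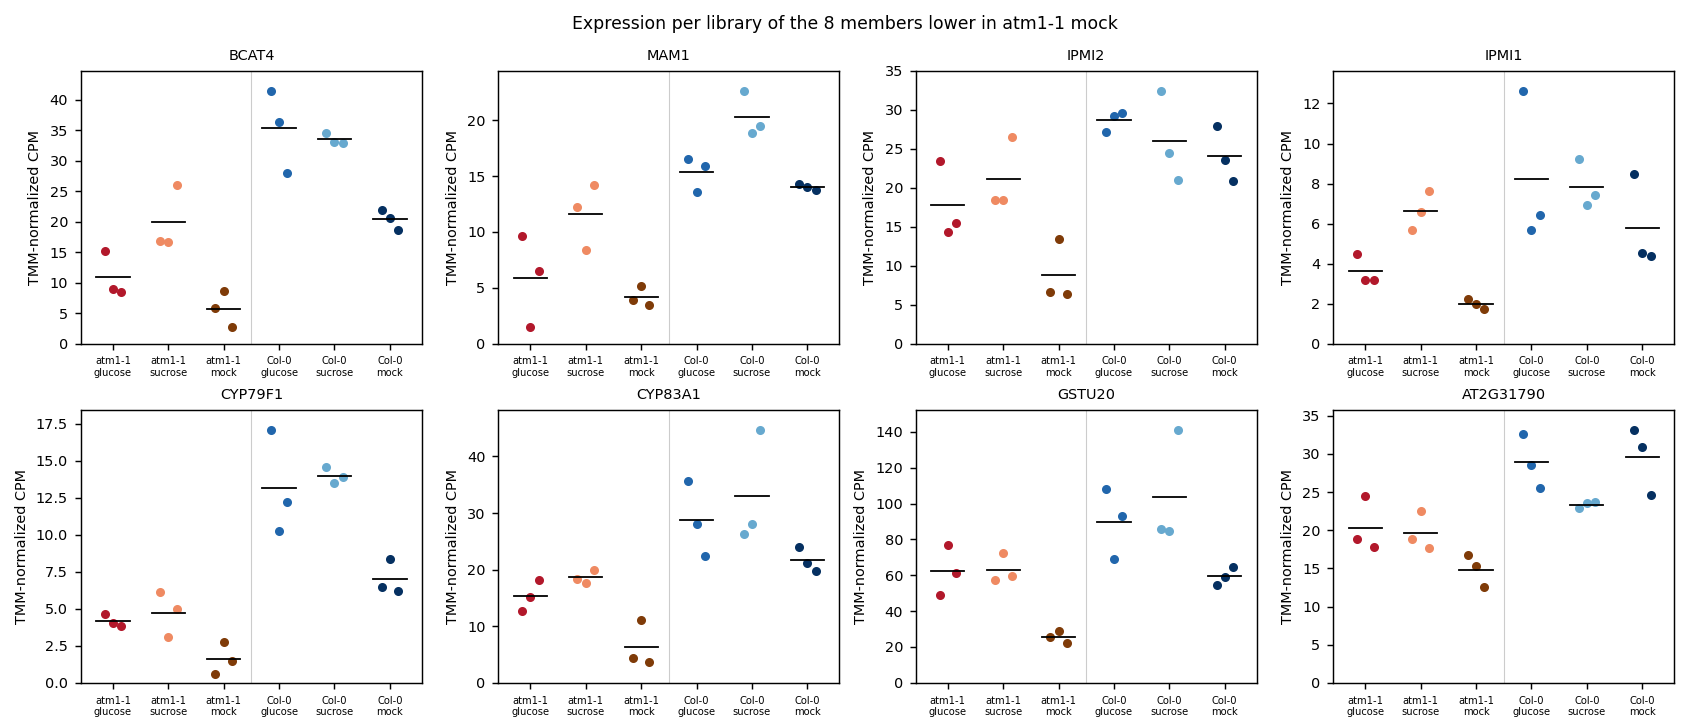
TMM-normalized CPM (y axis, linear from 0) in each of the 18 libraries for the 8 members lower in atm1-1 mock, by group on the x axis; points are libraries and lines group means. In each panel the 3 atm1-1 mock libraries lie below the 3 Col-0 mock libraries, while on sucrose the groups overlap for IPMI2 and IPMI1.

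On glucose, atm1-1 had 2 of 29 members at lower levels than Col-0 at edgeR q ≤ 0.1 and 0 at higher levels, where 0.0305% of all genes tested were called lower and 0.0203% higher. They were BCAT4, at 15.2, 8.97 and 8.52 CPM in atm1-1 and 41.5, 36.4 and 28.0 CPM in Col-0 (log2 fold change −1.69, SE 0.27, edgeR q = 0.00517), and CYP79F1, at 4.66, 4.05 and 3.87 CPM in atm1-1 and 17.1, 10.3 and 12.2 CPM in Col-0 (−1.65, SE 0.32, edgeR q = 0.0645). Both sets of libraries were separate. Over the members 25 of 29 were below 0, against 50.5% of all genes, with a median of −0.53, against 0.00, and libraries were separate with atm1-1 lower for 11 members, against 4.89% of all genes. The glucose calls varied with the libraries. BCAT4 was lost without atm1-1 glucose replicate 3 (edgeR q = 0.136) and CYP79F1 in 7 of 18 fits (highest edgeR q = 0.355), so that the count of 2 ran from 0 without atm1-1 glucose replicate 3 to 5 without atm1-1 glucose replicate 1. It was 1 without atm1-1 glucose replicate 2, the library that stood apart.

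On sucrose, CYP79F1 alone passed, lower in atm1-1, where 0.0254% of all genes tested were called lower and 0.0203% higher. It was at 6.14, 3.09 and 5.00 CPM in atm1-1 and 14.6, 13.5 and 13.9 CPM in Col-0 sucrose libraries (log2 fold change −1.56, SE 0.31, edgeR q = 0.096), with no overlap. This call was lost in 13 of 18 fits that left out 1 library (highest edgeR q = 0.880) and under RLE or library size scaling, although its log2 fold change stayed between −1.80 and −1.32. Of the 29 members 24 were below 0, against 52.1% of all genes, with a median of −0.27 against −0.01. Libraries were separate with atm1-1 lower for 10 members, against 6.25% of all genes, and with atm1-1 higher for 1, UGT74B1, against 5.9% of all genes. For CYP79F2 the 2 genotypes overlapped on sucrose, at 6.62, 9.46 and 9.19 CPM in atm1-1 and 9.34, 7.84 and 8.30 CPM in Col-0.

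How each genotype responded to sugar was the next comparison. All sugar comparisons of a genotype share its 3 mock libraries, which also enter the genotype comparison in mock, so low mock values in atm1-1 appear in each of them and the counts are not independent. In atm1-1, glucose raised 10 of 29 members over mock at edgeR q ≤ 0.1 and lowered 0, where 2.2% of all genes were called higher and 0.722% lower. Of the 10, 1 belonged to chain elongation, 7 to the core and 2 to the side-chain step, and 26 of 29 members were above 0, against 48.8% of all genes, with a median of 0.51, against −0.01. Libraries were separate and higher with glucose for 13 members, against 7.2% of all genes.

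GSTU20 was at 49.1, 77.0 and 61.3 CPM in atm1-1 glucose and 25.5, 28.9 and 22.2 CPM in atm1-1 mock (log2 fold change 1.29, SE 0.21, edgeR q = 0.000471). CYP83A1 was at 12.7, 15.1 and 18.2 CPM with glucose against 4.38, 11.0 and 3.76 CPM in mock (1.28, edgeR q = 0.0169). The libraries were separate for both. CYP79F1 rose by 1.43 (edgeR q = 0.0398) and CYP79F2 by 1.20 (edgeR q = 0.0538). IPMI2, the one elongation gene called, was at 23.5, 14.3 and 15.5 CPM with glucose against 6.63, 13.4 and 6.38 CPM in mock (1.02, edgeR q = 0.0321). SOT17 rose by 1.16 (edgeR q = 0.014), with replicate 2 at 33.6 CPM, and lost its call without that library or without atm1-1 mock replicate 2 (highest edgeR q = 0.144). SOT16 and UGT74B1 both rose by 0.51 (edgeR q = 0.085 and 0.0978).

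In the side-chain step FMO GS-OX1 rose by 3.12 with glucose (SE 0.72, edgeR q = 0.0188), with 1.58, 1.23 and 0.542 CPM in glucose libraries against 0.0576, 0.236 and 0.0817 CPM in mock, that is 40 counts against 5. FMO GS-OX4 was at 62.3, 69.9 and 60.8 CPM with glucose against 37.0, 41.3 and 35.3 CPM in mock (0.77, edgeR q = 0.0128). FMO GS-OX3, at 0.583, 0.0879 and 0.697 CPM with glucose, did not pass (−0.20). Of the 10 calls, those of GSTU20 and FMO GS-OX4 held whichever library was left out. Without atm1-1 mock replicate 1 or 3 the calls of IPMI2, CYP79F1, CYP79F2 and CYP83A1 were lost (highest edgeR q = 0.282, 0.430, 0.388 and 0.237), that of CYP79F2 also without atm1-1 glucose replicate 2 or 3, as was that of FMO GS-OX1 without replicate 1 (edgeR q = 0.115), and SOT16 and UGT74B1 were lost in 9 and 13 of 18 fits. The count was 3 without atm1-1 mock replicate 1, 4 without atm1-1 mock replicate 3, and 2 in a fit of the 6 libraries compared alone. Without atm1-1 glucose replicate 2 it was 9, of which 6 were kept and 3 were gained (BCAT4, MAM1 and GGP1), while CYP79F2, UGT74B1, SOT16 and SOT17 were lost. Without atm1-1 mock replicate 2 the log2 fold changes of CYP79F1, CYP83A1 and FMO GS-OX1 were 2.09, 1.91 and 3.87.

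In atm1-1, sucrose raised 14 of 29 members and lowered 0, where 2.85% of all genes were called higher and 2.39% lower. Members above 0 numbered 25 of 29, against 49.6% of all genes, with a median of 0.65 against 0.00. Libraries were separate and higher for 19 members, against 11.4% of all genes, and separate and lower for 1, BCAT3, against 12.1%. Chain elongation gave 5 of the calls, the core 7 and the side-chain step 2.

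BCAT4 was at 16.8, 16.7 and 26.0 CPM in atm1-1 sucrose and 5.88, 8.58 and 2.70 CPM in atm1-1 mock (log2 fold change 1.78, SE 0.28, edgeR q = 0.000355). MAM1 was at 12.2, 8.37 and 14.2 CPM with sucrose against 3.86, 5.20 and 3.43 CPM in mock (1.47, SE 0.34, edgeR q = 0.0147). Neither overlapped with mock. MAM3 had 2.03, 2.00 and 1.73 CPM with sucrose against 0, 0.315 and 0.245 CPM in mock, 88 counts against 7 (log2 fold change 3.41, SE 0.71, edgeR q = 0.00587). Of the isomerase subunits IPMI2 rose by 1.26 (edgeR q = 0.00422), at 18.4, 18.4 and 26.6 CPM, and IPMI1 by 1.72 (edgeR q = 0.00277), at 5.66, 6.57 and 7.64 CPM. IIL1 (−0.11), BCAT3 (−0.19) and IMD3 (−0.20), which leucine synthesis also uses, did not pass.

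Within the core, CYP79F2 rose by 1.87 (edgeR q = 0.000768) and CYP79F1 by 1.61 (edgeR q = 0.0109). CYP83A1 was at 18.4, 17.6 and 19.9 CPM with sucrose (1.55, edgeR q = 0.00214) and GSTU20 at 57.3, 72.6 and 59.7 CPM (1.31, edgeR q = 0.000355). These sucrose libraries all lay above the atm1-1 mock libraries. SOT17 (0.81, edgeR q = 0.0896), GGP1 (0.62, edgeR q = 0.0921) and UGT74B1 (0.59, edgeR q = 0.0309) rose as well, and of these the SOT17 call was lost in 9 and the GGP1 call in 14 of 18 fits that left out 1 library (highest edgeR q = 0.311 and 0.308). FMO GS-OX1 rose by 3.18 (SE 0.71, edgeR q = 0.0108), with 1.34, 0.966 and 1.18 CPM in sucrose libraries, and FMO GS-OX4 by 0.65 (edgeR q = 0.0303), with 50.0, 57.0 and 71.6 CPM. Calls of BCAT4, MAM1, MAM3, IPMI2, IPMI1, CYP79F2, CYP83A1, GSTU20 and FMO GS-OX1 held whichever library was left out, and the count ran from 11 to 14. Without atm1-1 mock replicate 2 the log2 fold changes of MAM3, CYP79F1, CYP83A1 and FMO GS-OX1 were 4.07, 2.27, 2.19 and 3.93, and that of MAM3 was 2.74 without atm1-1 mock replicate 1. The call of CYP79F1 was lost without atm1-1 sucrose replicate 1 (edgeR q = 0.103), that of UGT74B1 without atm1-1 mock replicate 2 (edgeR q = 0.143) and that of FMO GS-OX4 without atm1-1 mock replicate 1 or 3 or sucrose replicate 3 (highest edgeR q = 0.189).

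In Col-0 fewer members were called. With glucose 0 of 29 were called by edgeR or by DESeq2, with 3 at an unadjusted p under 0.05, where 0.554% of all genes were called in either direction by edgeR and 6.07% had such a p. Above 0 were 26 of 29, against 49.5% of all genes, with a median of 0.25 against 0.00, and libraries were separate and higher for 7 members, against 6.78% of all genes. BCAT4 was at 41.5, 36.4 and 28.0 CPM in Col-0 glucose and 21.9, 20.6 and 18.6 CPM in Col-0 mock (0.79, edgeR q = 0.374), and CYP79F1 was at 17.1, 10.3 and 12.2 CPM against 6.47, 8.39 and 6.21 CPM (0.91, edgeR q = 0.419). Neither passed, though the libraries of both were separate.

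With sucrose, GSTU20 alone was called in Col-0, where 1.24% of all genes were called higher and 0.899% lower. It was at 86.0, 84.5 and 141 CPM in Col-0 sucrose and 54.8, 58.8 and 64.5 CPM in Col-0 mock (0.81, SE 0.20, edgeR q = 0.0456), and the call was lost without Col-0 mock replicate 1 or 3 or Col-0 sucrose replicate 3 (highest edgeR q = 0.397). Sucrose replicate 3 was the highest of the 6 libraries. Of 29 members 21 were above 0, against 51.1% of all genes, with a median of 0.32, against 0.01. Libraries were separate and higher for 12 members, against 10.3% of all genes, and lower for 2, against 10.1%. CYP79F1, at 14.6, 13.5 and 13.9 CPM with sucrose, did not pass by edgeR (0.99, q = 0.12) and passed by DESeq2 (q = 0.0524). MAM1, at 22.6, 18.8 and 19.5 CPM, and BCAT4, at 34.6, 33.1 and 32.8 CPM, differed from mock by 0.53 and 0.72 and did not pass (edgeR q = 0.484 and 0.204).

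**Figure D3:**
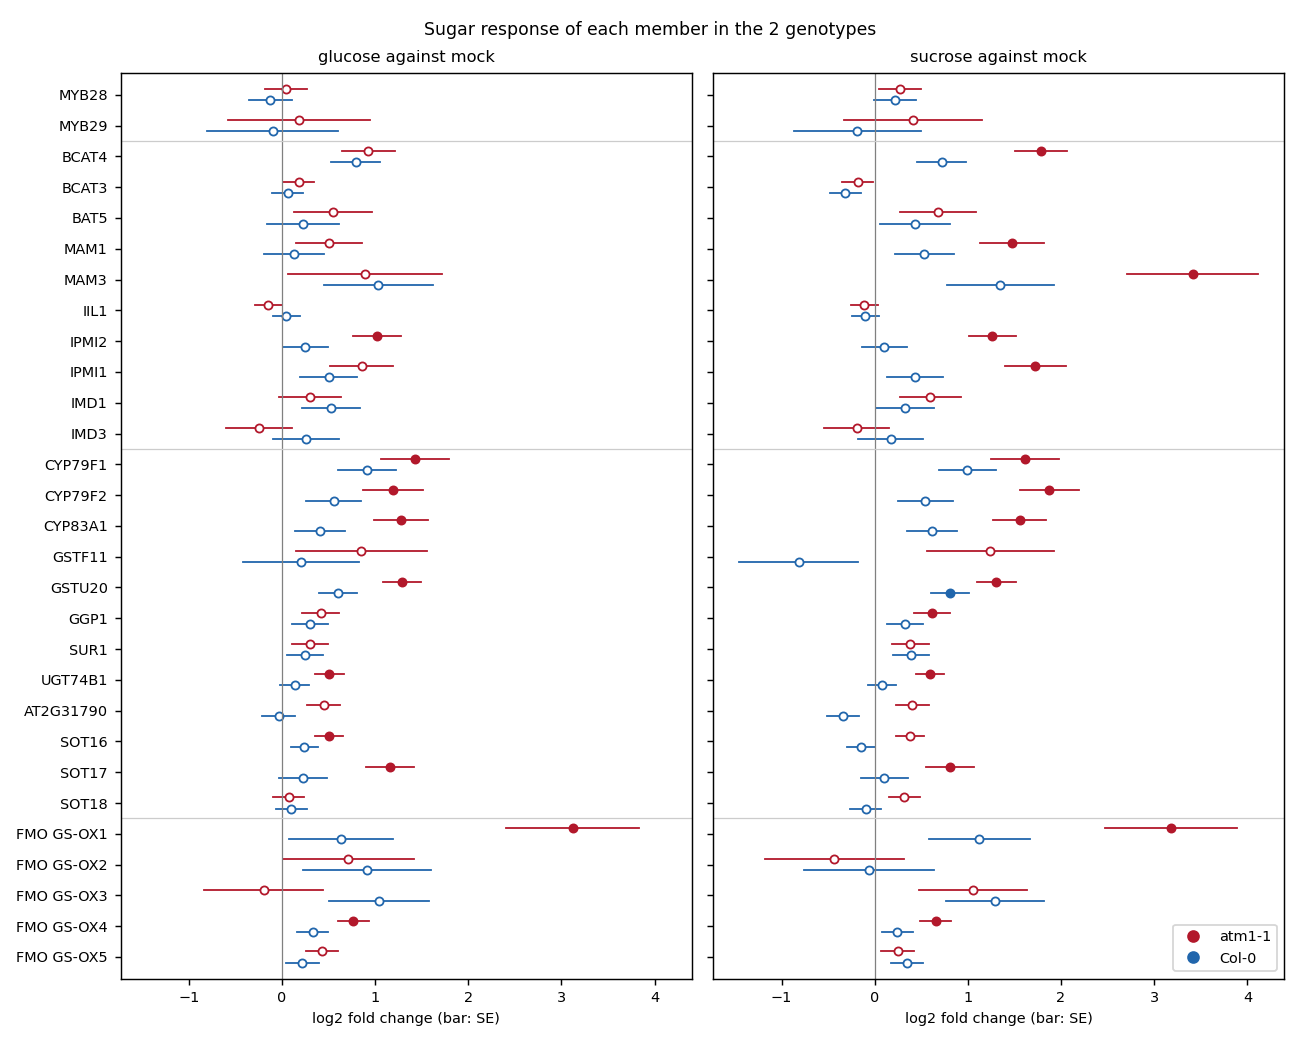
Log2 fold change of glucose (left) and sucrose (right) against mock (x axis) for each tested member (y axis, ordered by step), in atm1-1 (red, upper point) and Col-0 (blue, lower point). Bars are the SE and filled points passed edgeR q ≤ 0.1, which 10 and 14 members did in atm1-1 and 0 and 1 in Col-0.

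More calls in one genotype do not show that the responses differ, and the difference itself was tested as an interaction. No member and no gene passed edgeR q ≤ 0.1 for the glucose response, the sucrose response or their average (lowest q over all genes 0.223), that is 0% of all genes, and DESeq2 called 0 members in each, with 8, 5 and 9 genes in all. At an unadjusted p under 0.05 were 5 of 29 members for glucose, 11 for sucrose and 11 for the average, against 3.81%, 2.84% and 3.35% of all genes. For the average, 25 of 29 members had a higher response in atm1-1 than in Col-0, against 49% of all genes, and the median difference was 0.44, against −0.01 over all genes. The same mock libraries enter every such difference.

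The member with the lowest p for the average was IPMI2, whose response in atm1-1 exceeded that in Col-0 by 0.97 on the log2 scale (95% interval 0.34 to 1.59, unadjusted p = 0.00382, edgeR q = 1.0). AT2G31790 followed with a difference of 0.61 (unadjusted p = 0.00844). It was at 18.8, 24.4 and 17.7 CPM with glucose and 18.9, 22.5 and 17.7 CPM with sucrose in atm1-1, above the atm1-1 mock libraries, and at 32.6, 28.6 and 25.5 CPM with glucose and 22.9, 23.5 and 23.7 CPM with sucrose in Col-0, the sucrose libraries lying below those of mock. FMO GS-OX1 had the highest difference of any member, 2.27 (unadjusted p = 0.0106). For MYB28 the difference was 0.11, with an interval of −0.46 to 0.68.

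Summed over the 31 members measured, tags came to 741 to 838 CPM in atm1-1 glucose, 731 to 868 CPM in atm1-1 sucrose and 576 to 620 CPM in atm1-1 mock libraries. In Col-0 the sums were 945 to 1008 CPM with glucose, 860 to 953 CPM with sucrose and 781 to 858 CPM in mock. The atm1-1 mock libraries thus had the lowest sums of the 18. By step, core members summed to 283 to 292 CPM in atm1-1 mock and 409 to 457 CPM in Col-0 mock, and to 413 to 467 CPM in atm1-1 sucrose. In the core sum SOT16, which also serves indole glucosinolates, took the most tags, with means of 120 CPM in atm1-1 mock and 148 CPM in Col-0 mock. Chain elongation members summed to 236 to 261 CPM in atm1-1 mock and 298 to 315 CPM in Col-0 mock, a sum in which IIL1 and BCAT3 took the most tags. These sums are descriptions and were not tested.

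**Figure D4:**
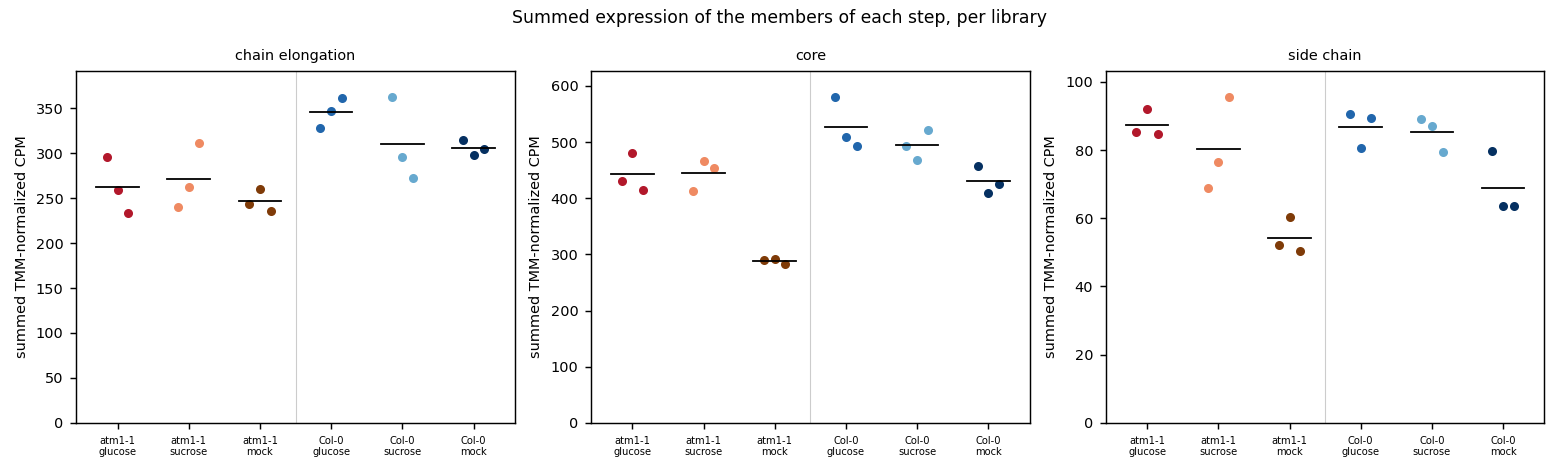
Summed TMM-normalized CPM (y axis, linear from 0) of the chain elongation, core and side-chain members in each library, by group on the x axis; points are libraries and lines group means. The 3 atm1-1 mock libraries hold 283 to 292 CPM of core tags, below every other library, and in chain elongation they overlap with the sugar libraries of atm1-1.

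Genes around the pathway were compared in the same fit. The indole branch, which makes glucosinolates from tryptophan, had 14 of 14 genes tested. Of these 1 was lower in atm1-1 mock and 0 were higher, against 0.122% and 0.0356% of all genes, with a median of −0.26. This was CYP81F4, an indole glucosinolate hydroxylase (−0.92, SE 0.16, edgeR q = 0.00875). In atm1-1, glucose raised 3 of the 14 and sucrose 4, CYP81F4 (1.45 and 1.26) and the methyltransferase IGMT1 (0.67 and 0.72) among them, against 2.2% and 2.85% of all genes. None was called in Col-0, but the medians over the 14 were 0.34 with glucose and 0.26 with sucrose there, beside 0.44 and 0.60 in atm1-1. With glucose and sucrose, 6 and 7 indole genes had an unadjusted p under 0.05 in Col-0 and 5 and 7 in atm1-1. Of all 19679 genes tested, 1194 and 2600 had such a p in Col-0 and 2688 and 2880 in atm1-1, so the counts of the 2 genotypes have unlike backgrounds. No indole gene passed for the difference between the genotypes (lowest edgeR q = 0.532). The 7 paralogs that serve leucine synthesis had 0 calls in mock between genotypes and a median of 0.11, with 0 at an unadjusted p under 0.05 and 6 of 7 above 0. Among them BCAT2, an aminotransferase of branched-chain amino acids, fell by 1.01 with glucose and by 1.36 with sucrose in atm1-1 and by 1.03 with sucrose in Col-0.

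Of 10 upstream regulators and cofactor genes, APK2, an adenylylsulfate kinase that supplies the sulfate donor of the sulfotransferases, was lower in atm1-1 mock (−0.82, SE 0.18, edgeR q = 0.08). It rose in atm1-1 with glucose (1.33, edgeR q = 4.96e-05) and sucrose (1.19, edgeR q = 0.000185) and in Col-0 with sucrose (0.59, edgeR q = 0.0946). SDI1, a repressor of glucosinolate synthesis under sulfur limitation, rose by 1.35 with sucrose in atm1-1, and its relative SDI2 rose by 0.74 with glucose and 0.61 with sucrose there. Of 9 breakdown genes, 1 was called higher with glucose and 2 with sucrose in atm1-1, against 2.2% and 2.85% of all genes. In Col-0 1 was called higher with glucose, where 87 of the 19679 genes tested were called higher. With sucrose 1 was called higher there, against 1.24% of all genes. Not every one of these is named here. The nitrile specifier NSP1 rose in atm1-1 with glucose (1.03) and sucrose (0.89) and in Col-0 with glucose (0.85), and the beta-glucosidase BGLU30 fell with each sugar in both genotypes (by 1.05 to 1.36). Of all genes, 0.722% with glucose and 2.39% with sucrose were called lower in atm1-1. In Col-0, 22 of the 19679 genes tested were called lower with glucose and 0.899% with sucrose. Shoot markers fell with sucrose, with 3 of 8 called lower in atm1-1 and 2 of 8 in Col-0, against 2.39% and 0.899% of all genes. All 8 were below 0 in both genotypes, with medians of −0.44 in atm1-1 and −0.45 in Col-0. Libraries were separate and lower for 6 in atm1-1 and 7 in Col-0, against 12.1% and 10.1% of all genes. Seed storage levels moved with both sugars. With glucose their sums were 19.4 to 35.8 CPM in atm1-1 and 12.3 to 60.4 CPM in Col-0. Summed seed storage levels were 27.5 to 108 CPM in atm1-1 sucrose and 0.236 to 0.899 CPM in atm1-1 mock, and 56.5 to 107 CPM in Col-0 sucrose and 0.504 to 1.49 CPM in Col-0 mock, with 4 to 5 of the 7 listed genes at 0 in each mock library. Of the 7 genes 3 had enough counts to be tested, and as they reached these only in sugar libraries their calls are not counted here. The part of shoot marker and seed storage genes in the sugar responses of the pathway was not tested.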

How the data were processed

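RNA of 18 libraries, 3 biological replicates of each genotype and medium, was sequenced by QuantSeq 3′ tags as 50-base reads. Reads were aligned to TAIR10 by the authors, who deposited the counts of each gene unscaled. The submitters' processing notes name STAR, HTSeq and edgeR, and versions, annotation and strand setting are not given in the sources used here. A second deposited table of scaled values was not used. Counts were filtered by filterByExpr, scaled by TMM and fitted with edgeR 4.0.16 (R 4.3.3, limma 3.58.1) by glmQLFit over the 6 groups, and glmQLFTest gave 10 comparisons, each Benjamini-Hochberg adjusted over 19679 genes, with the study's threshold of q ≤ 0.1. The study's own test, PoissonSeq, was not run. The SE is the log2 fold change divided by the square root of F. Libraries held 9450790 to 20256309 counts. Intervals cover 95%. No molecular identifiers are described, so copies made by PCR are not told apart.

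Members and lists were chosen with earlier results of these data known. Members called in a comparison were named with values, and per-library values were given for the regulators and, in each step, for the 3 members with the lowest p in mock or in the averaged interaction, with a few other called members beside them. Of the other lists, at most 3 called genes per comparison were named. Alternatives were RLE (edgeR) and library size scaling, no filter, at least 10 counts in every library, DESeq2 1.42.0, only the groups compared, a replicate block, q ≤ 0.05 and each library left out. The fit was also run on simulated counts with the same spread for all genes and no library standing apart. That run is therefore no measure of the error in these data. AOP2 was not analysed here.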

Additional observations from a re-analysis of the deposited data

Results flagged for a closer look

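For 2 members, picked for this trait, the sucrose libraries separated from mock in opposite directions in the genotypes. Of all genes, 11.4% were separate and higher with sucrose in atm1-1 and 10.1% were separate and lower in Col-0. The share of all genes that did both was not counted, so these 2 members cannot be set against it. GSTF11, a glutathione transferase of the core step, was at 1.39, 1.16 and 1.73 CPM in atm1-1 sucrose, above 0.519, 1.02 and 0.245 CPM in atm1-1 mock, and at 1.23, 0.647 and 1.31 CPM in Col-0 sucrose, below 2.46, 1.88 and 1.34 CPM in Col-0 mock. The sucrose response of atm1-1 exceeded that of Col-0 by 2.06 on the log2 scale (SE 0.93, unadjusted p = 0.037), and the interaction did not pass (edgeR q = 1.0). The gene had 25 to 80 counts per group, and its gaps were small, 1.16 against 1.02 CPM in atm1-1 and 1.31 against 1.34 CPM in Col-0. AT2G31790 was above mock in all atm1-1 sucrose libraries and below mock in all Col-0 sucrose libraries, and the difference of its responses was 0.74 (SE 0.25, unadjusted p = 0.00592, edgeR q = 1.0). As the strand setting is not given, its reads could not be told apart from those of AT2G31800. That gene overlaps it on the opposite strand and had 5913 counts over the 18 libraries, against 5591 for AT2G31790.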

How the results depend on the processing

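No called direction reversed in any alternative. The direction of the members in mock held under each scaling, with 27 of 29 below 0 by TMM and RLE and 28 by library size. Library size scaling moved the median of all genes with sucrose to 0.14 in atm1-1 and 0.15 in Col-0, and the share of higher genes among all calls to 83.1%, against 54.4% by TMM, in atm1-1 and 86.7%, against 58.0%, in Col-0. On glucose the genotype count of 2 was 7 without the filter, 5 with DESeq2, and 1 with at least 10 counts in every library, with only the groups compared, with the replicate block and at q ≤ 0.05. On sucrose the genotype count of 1 was 4 without the filter and 0 with RLE, library size scaling, at least 10 counts, the replicate block and q ≤ 0.05. The 10 glucose calls in atm1-1 were 2 with only the groups compared. In Col-0 the glucose count of 0 was 3 without the filter and 3 with only the groups compared, and the sucrose count of 1 was 2 with library size scaling, 2 with DESeq2, 4 without the filter and 3 with only the groups compared. The interaction for sucrose, at 0, was 1 without the filter (IPMI2). Leaving out 1 library gave 3 to 10 members for atm1-1 against Col-0 in mock, 0 to 5 on glucose and 0 to 1 on sucrose, 3 to 10 and 11 to 14 for glucose and sucrose in atm1-1, 0 and 0 to 2 in Col-0, and 0 for the interactions. The cause of these differences was not tested.

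Between groups compared, the deviations of replicates of the same number from their group means correlated weakly (−0.148 to 0.145). No pairing by number was seen, but so few libraries per group cannot settle whether the replicates were paired. With the replicate number as a block 31 of 36 member calls were kept and 5 lost. Depth limits MYB29, MYB76, MAM3, GSTF11, FMO GS-OX1, FMO GS-OX2 and FMO GS-OX3, with at most 132 counts per group, and AOP3 with 1 count.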
